A study of Mus musculus with 2 samples.

Results

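The genes described here are 39 genes of macrophages and of leukocytes in general. They were chosen by name from knowledge of these cells, with earlier results of these data known. Of the 39 symbols, 38 were present among 22090 gene symbols with an abundance estimate. RNA was sequenced from ScxGFP-positive and ScxGFP-negative cells, separated by fluorescence-activated sorting from forelimbs of E13.5 mouse embryos of mixed strain background. The green fluorescent reporter marks cells in which *Scx* control sequence is active, and scleraxis, its product, is a factor of developing tendon. Each population gave 1 library from 6 pooled forelimbs (3 pairs). With 1 library per group there was no replicate and no test, so every difference below describes these 2 libraries only.

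Macrophages enter embryonic tissues early, from the yolk sac and later from the fetal liver, and clear dying cells there, in the limb including those between the digits. Their identity depends on the transcription factor PU.1, encoded by *Spi1*, and on signalling through the receptor CSF1R. They carry Fc, scavenger and complement machinery on a cytoskeleton and signalling core that they share with other leukocytes, so a set of such genes reports both the macrophage lineage and blood cells more broadly. In RNA from pooled cells, fewer cells of a type and less RNA per cell cannot be told apart.

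Levels are the deposited FPKM, fragment counts scaled to transcript length and to the mapped fragments of the library, with a gene's transcripts added together. Being per length, they can be set side by side between genes, but only length and library size are scaled for. Differences are log2 ratios of FPKM + 1, positive over negative library, a scale on which the differences of low genes come out too small. Genes that reached 1 FPKM in at least 1 library are called measured, and there were 12096 of them. *Scx*, the gene behind the sort, stood at 134 FPKM in ScxGFP-positive and 1.69 FPKM in ScxGFP-negative cells. The sequence aligned to listed transcripts came to 0.687 gigabases in the ScxGFP-positive and 0.875 gigabases in the ScxGFP-negative library.

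As a group the genes were at much lower levels in ScxGFP-positive cells. Their FPKM summed to 39.3 in ScxGFP-positive and 841 in ScxGFP-negative cells, so that the positive sum was 4.66% of the negative one. Of all FPKM, 0.0242% belonged to them in ScxGFP-positive and 0.382% in ScxGFP-negative cells. Of the 38 genes, 36 were at least 2-fold lower in ScxGFP-positive cells, 0 were higher by as much and 2 were neither; among all symbols 5.46% were lower and 2.21% higher by at least 2-fold. All 36 were measured genes, of which 9.98% were lower and 4.03% higher. At 4-fold 29 of the genes were lower, against 2.93% of measured genes, and at 8-fold 16 were lower, against 1.17%. The median log2 ratio over all 38 genes was −2.67, beside −0.04 over all 22090 symbols. Over the 36 measured genes it was −2.82, beside −0.27 over all measured genes. Of those 36 genes, 26 reached an FPKM of 1 in ScxGFP-negative cells only and thus could only have been lower, while 10 reached it in both libraries. The lowest ratios of all 12096 genes included 9 of these genes among the first 100. The count of 36 depended on the pseudocount and was 23 with a pseudocount of 5, where 3.26% of all measured genes were lower.

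**Figure D1:**
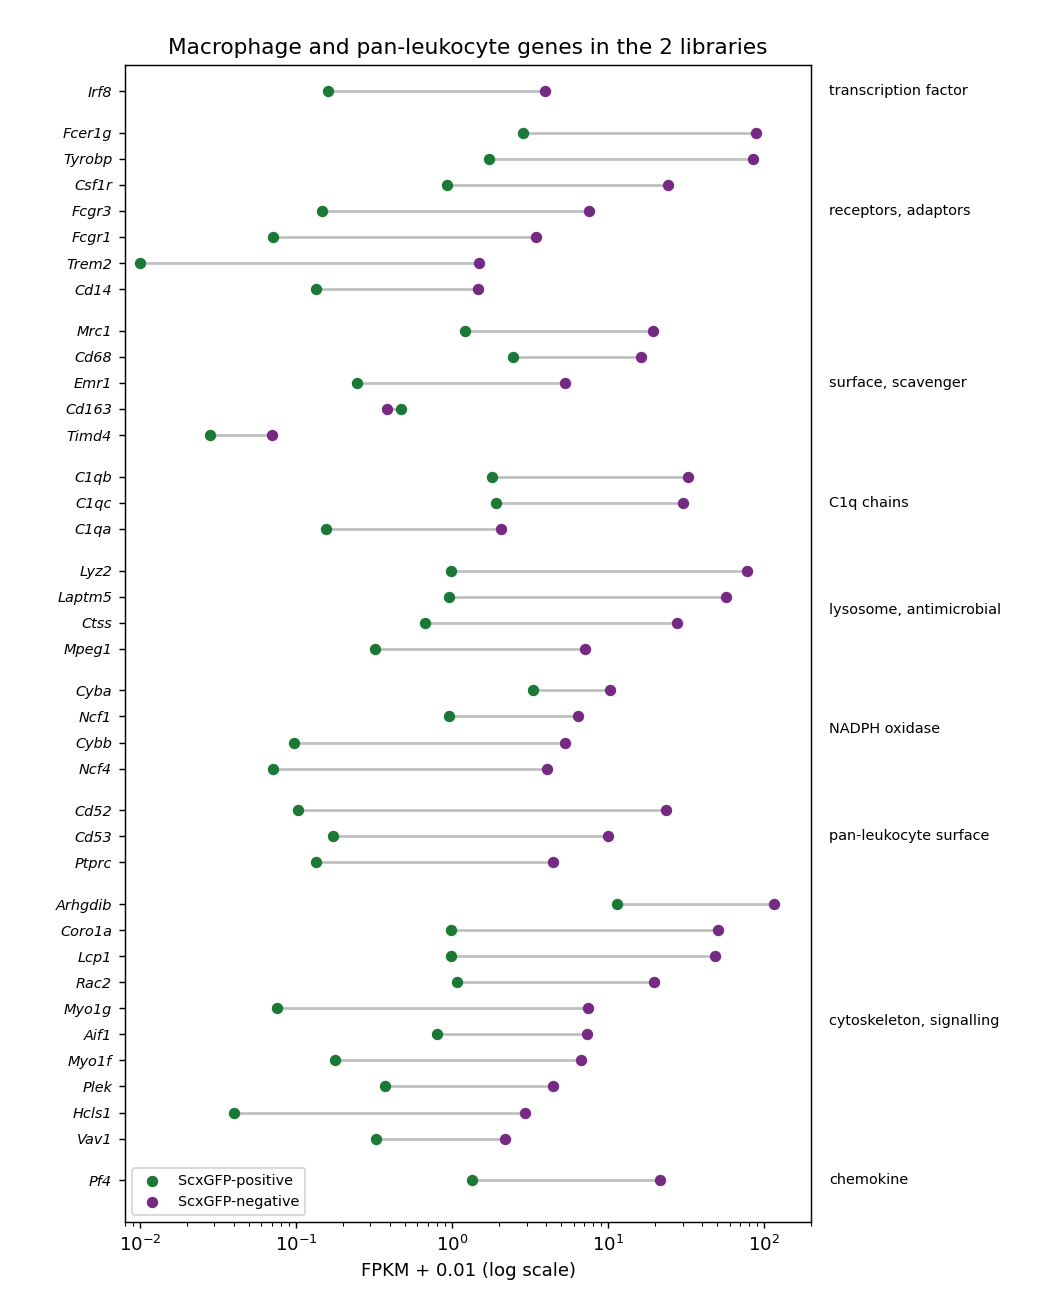
FPKM + 0.01 on a log axis of each of the 38 genes in the ScxGFP-positive library (green) and the ScxGFP-negative library (purple), 1 library each, grouped by role. The green point lies left of the purple one for every gene but *Cd163*, and *Trem2*, listed at 0 FPKM in the positive library, sits at the left edge.

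Transcription factors of the lineage come first. *Irf8*, an interferon regulatory factor needed for macrophage and monocyte development, stood at 0.151 FPKM in ScxGFP-positive and 3.94 FPKM in ScxGFP-negative cells, a log2 ratio of −2.10. The symbol *Spi1* was absent, but its RefSeq transcript NM_011355 was listed under the older symbol *Sfpi1*, looked up after other values had been seen and kept out of the counts. *Sfpi1* (mm9 chromosome 2, 90936954 to 90955913) stood at 0.251 FPKM in ScxGFP-positive and 17.6 FPKM in ScxGFP-negative cells, a log2 ratio of −3.90. With *Sfpi1* included 37 genes were lower by at least 2-fold, and the median of measured genes was −2.91. Its level in the negative library was above that of *Irf8*, and both were far lower in the positive library.

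Other transcription factors of myeloid cells were lower by a smaller margin. *Cebpa*, a myeloid factor also used in fat and liver, stood at 0.826 FPKM in ScxGFP-positive and 6.02 FPKM in ScxGFP-negative cells. *Myb*, a factor of blood progenitors, was at 0.994 FPKM in ScxGFP-positive and 6.30 FPKM in ScxGFP-negative cells, and *Runx1*, which also acts in skeletal tissue, at 1.11 FPKM in ScxGFP-positive and 5.82 FPKM in ScxGFP-negative cells. All 6 measured genes of the 8 of this list in the files were at least 2-fold lower and 0 were at least 4-fold lower. The positive level ranged from 12.5% to 27.8% of the negative level among them, above the 3.82% of *Irf8* and the 1.42% of *Sfpi1*.

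Promoter sequence of the genes was searched for the purine-rich core of PU.1 sites. Windows of 250 bases before the annotated start, taken from RefSeq on GRCm38 (a later build than the mm9 of the expression files), were on hand for 30 of the 38 genes. The letters GAGGAA, on either strand, occurred in 16 of 30 genes (53.3%) and in 25.9% of 27025 genes with such a window. In windows that run 50 bases past the start, 300 bases in all, the shares were 60% and 31.3%. The ETS-IRF composite element, which PU.1 binds with an IRF partner and which can overlap a GAGGAA match, occurred before the start of 1 of 30 genes, *Timd4*, and of 2.68% of all genes. In the 300-base windows it occurred in 3 of 30 genes (10%) and in 3.16% of all. TATAAA occurred in 6 of 30 genes (20%) and in 14.3% of all. All motifs were searched on both strands, and a gene with several starts counted once. A match is a run of letters and not a shown binding site.

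The windows below are of 5 genes with low ratios that hold the core: both complement chains with an entry, a lysosomal membrane protein, a lysosomal protease, and the mannose receptor, whose window holds 3 copies. Each reads 5′ to 3′ up to the base before the start, and capitals mark GAGGAA or its reverse complement TTCCTC. They lie at chr4:130913066-130913315, plus strand, for *Laptm5*, at chr3:95526536-95526785, plus strand, for *Ctss*, at chr4:136886201-136886450, minus strand, for *C1qb*, at chr4:136892915-136893164, minus strand, for *C1qc*, and at chr2:14229164-14229413, plus strand, for *Mrc1*.
Laptm5: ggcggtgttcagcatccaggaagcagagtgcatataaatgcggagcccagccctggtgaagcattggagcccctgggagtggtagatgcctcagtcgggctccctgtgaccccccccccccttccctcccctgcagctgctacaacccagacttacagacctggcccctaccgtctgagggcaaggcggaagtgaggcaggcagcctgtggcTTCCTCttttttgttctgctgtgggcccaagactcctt
Ctss: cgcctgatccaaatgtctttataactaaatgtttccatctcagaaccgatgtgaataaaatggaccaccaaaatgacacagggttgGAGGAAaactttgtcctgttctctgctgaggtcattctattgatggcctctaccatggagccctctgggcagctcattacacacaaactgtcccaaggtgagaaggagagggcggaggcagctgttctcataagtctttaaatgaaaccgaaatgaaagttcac
C1qb: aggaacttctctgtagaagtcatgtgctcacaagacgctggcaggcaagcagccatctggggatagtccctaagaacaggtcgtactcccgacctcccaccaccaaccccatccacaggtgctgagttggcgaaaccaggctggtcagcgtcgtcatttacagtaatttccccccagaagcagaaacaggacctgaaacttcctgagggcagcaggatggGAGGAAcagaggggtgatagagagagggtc
C1qc: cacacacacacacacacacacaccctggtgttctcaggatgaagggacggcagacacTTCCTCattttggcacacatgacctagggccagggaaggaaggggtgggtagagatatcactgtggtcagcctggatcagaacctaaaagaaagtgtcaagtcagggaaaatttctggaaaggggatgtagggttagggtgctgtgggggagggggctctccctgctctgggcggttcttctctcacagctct
Mrc1: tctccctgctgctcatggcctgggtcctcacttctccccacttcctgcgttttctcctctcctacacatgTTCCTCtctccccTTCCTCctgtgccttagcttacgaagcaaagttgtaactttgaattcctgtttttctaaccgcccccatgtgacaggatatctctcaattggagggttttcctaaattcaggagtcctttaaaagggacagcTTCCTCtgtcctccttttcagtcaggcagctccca

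The core begins at base −38 from the start in *Laptm5*, −164 in *Ctss*, −30 in *C1qb* and −193 in *C1qc*. All 3 copies in *Mrc1* read TTCCTC. *Lyz2*, *Coro1a*, *Lcp1* and *Fcer1g*, also among the genes with the lowest ratios, hold no such run in their windows.

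Receptors and their adaptors include some of the most abundant of these transcripts. *Tyrobp*, which encodes the adaptor DAP12 (NM_011662, mm9 chromosome 7, 31198807 to 31202598), stood at 1.73 FPKM in ScxGFP-positive and 84.6 FPKM in ScxGFP-negative cells. *Fcer1g*, the shared signalling chain of Fc receptors (mm9 chromosome 1, 173159703 to 173164480), stood at 2.82 FPKM in ScxGFP-positive and 89.2 FPKM in ScxGFP-negative cells. *Csf1r*, the receptor for the growth factors CSF1 and IL-34 (NM_001037859), stood at 0.919 FPKM in ScxGFP-positive and 24.0 FPKM in ScxGFP-negative cells. The log2 ratios of *Tyrobp*, *Fcer1g* and *Csf1r* were −4.97, −4.56 and −3.71, or 31.4-fold, 23.6-fold and 13.05-fold lower in ScxGFP-positive cells on the FPKM + 1 scale.

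Ligand-binding receptors were less abundant. *Fcgr3*, a low-affinity IgG receptor, was at 0.138 FPKM in ScxGFP-positive and 7.58 FPKM in ScxGFP-negative cells, and *Fcgr1*, the high-affinity one, at 0.0612 FPKM in ScxGFP-positive and 3.44 FPKM in ScxGFP-negative cells. *Cd14*, a co-receptor for bacterial lipopolysaccharide, was at 0.125 FPKM in ScxGFP-positive and 1.46 FPKM in ScxGFP-negative cells. On the FPKM + 1 scale its fold of 2.19 was the smallest of the group, while its positive FPKM was 8.56% of the negative one. *Trem2*, a lipid-sensing receptor that signals through DAP12, was listed at 0 in ScxGFP-positive cells and at 1.48 FPKM in ScxGFP-negative cells, and no fold is given. All 7 receptor and adaptor genes were lower; the positive values of 4 of them rest on under 1000 aligned bases, that of *Fcgr1* on about 362.

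The ligands of macrophage receptors did not share this pattern. *Csf1*, the main growth factor of macrophages, stood at 2.81 FPKM in both libraries, and is named outside the rule for named genes because its product binds CSF1R. *Il34*, likewise chosen, was under 1 FPKM in both, at 0.0327 FPKM in ScxGFP-positive and 0.208 FPKM in ScxGFP-negative cells. *Cd47*, which encodes a surface signal that inhibits uptake by macrophages, was at 6.96 FPKM in ScxGFP-positive and 12.9 FPKM in ScxGFP-negative cells. *Gas6* and *Pros1*, bridging ligands between dying cells and TAM receptors, stood at 2.72 and 3.17 FPKM in ScxGFP-positive cells, against 4.29 and 3.87 FPKM in ScxGFP-negative cells. Of 5 measured ligand genes 1 was at least 2-fold lower, *Cd200*, an inhibitory ligand also found on neurons and endothelium, at 1.82 FPKM in ScxGFP-positive and 6.67 FPKM in ScxGFP-negative cells.

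Surface and scavenger genes were split. *Mrc1*, the mannose receptor (mm9 chromosome 2, 14151041 to 14253650), stood at 1.20 FPKM in ScxGFP-positive and 19.2 FPKM in ScxGFP-negative cells. *Emr1*, which encodes the macrophage antigen F4/80, was at 0.236 FPKM in ScxGFP-positive and 5.28 FPKM in ScxGFP-negative cells. *Cd68*, a late endosomal glycoprotein of phagocytes, was at 2.44 FPKM in ScxGFP-positive and 16.2 FPKM in ScxGFP-negative cells, with the positive level at 15.0% of the negative one. The remaining pair were the genes that did not pass 2-fold. *Cd163*, the haemoglobin scavenger receptor of mature macrophages, was at 0.462 FPKM in ScxGFP-positive and 0.375 FPKM in ScxGFP-negative cells. *Timd4*, a phosphatidylserine receptor of some resident macrophages, was at 0.0181 FPKM in ScxGFP-positive and 0.0602 FPKM in ScxGFP-negative cells, on about 90.0 aligned bases in ScxGFP-positive and 313 in ScxGFP-negative cells. Both lay under 1 FPKM in both libraries, so neither could have reached 2-fold on this scale.

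Genes of the C1q complex, which recognises antibody and cell debris, were lower in ScxGFP-positive cells and differed in level among themselves. *C1qb* stood at 1.79 FPKM in ScxGFP-positive and 32.7 FPKM in ScxGFP-negative cells, and *C1qc* at 1.91 FPKM in ScxGFP-positive and 30.2 FPKM in ScxGFP-negative cells. *C1qa*, the third chain of the same protein, was at 0.146 FPKM in ScxGFP-positive and 2.06 FPKM in ScxGFP-negative cells. In FPKM it was thus at 8.15% of the *C1qb* level in ScxGFP-positive and 6.31% in ScxGFP-negative cells. The *C1qa* value in ScxGFP-positive cells rests on about 360 aligned bases. Whether the difference between the chains lies in the RNA or in how each gene was amplified and aligned was not tested. The positive levels were 5.47%, 6.33% and 7.07% of the negative levels for *C1qb*, *C1qc* and *C1qa*, a narrow range despite the spread in level. The 3 genes lie side by side on mm9 chromosome 4, *C1qb* at 136436061 to 136442092, *C1qc* at 136445717 to 136448829 and *C1qa* at 136451831 to 136454759, with gaps of 3.62 and 3.00 kb and 0 other listed genes between them.

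Other early complement genes were mostly near the floor. Of 7 genes 2 were measured, among them *Serping1*, the C1 inhibitor, at 6.60 FPKM in ScxGFP-positive and 2.85 FPKM in ScxGFP-negative cells. The ratio of *Serping1* was 0.98, and it passed 2-fold, on the higher side, when the libraries were scaled to equal median ratio, equal upper quartiles or TPM.

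Lysosomal and antimicrobial genes had the lowest median ratio among these roles, −4.49. *Lyz2*, which encodes lysozyme (NM_017372, mm9 chromosome 10, 116714597 to 116719328), stood at 0.979 FPKM in ScxGFP-positive and 77.4 FPKM in ScxGFP-negative cells. On the FPKM + 1 scale *Lyz2* was 39.6-fold lower, the lowest ratio of the 38 genes. Its near-copy *Lyz1*, named for that reason, stood at 0.111 FPKM in ScxGFP-positive and 6.82 FPKM in ScxGFP-negative cells, and how reads were divided between the copies is uncertain. *Laptm5*, a lysosomal membrane protein of blood cells (mm9 chromosome 4, 130469249 to 130492063), was at 0.950 FPKM in ScxGFP-positive and 56.5 FPKM in ScxGFP-negative cells. *Ctss*, the protease cathepsin S, was at 0.662 FPKM in ScxGFP-positive and 27.5 FPKM in ScxGFP-negative cells. *Mpeg1*, a pore-forming protein of macrophages, was at 0.310 FPKM in ScxGFP-positive and 7.07 FPKM in ScxGFP-negative cells. The positive levels of the 4 genes were 1.26% to 4.38% of the negative ones.

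Lysosomal genes that most cells use were closer between the libraries. Of 13 such genes 6 were at least 2-fold lower, while 7 lay within 2-fold, with a median positive level of 52.4% of the negative level, beside 78.9% over all measured genes. The lowest ratios belonged to *Ctsh*, encoding cathepsin H, at 0.813 FPKM in ScxGFP-positive and 6.55 FPKM in ScxGFP-negative cells, and *Lgmn*, encoding legumain, at 2.33 FPKM in ScxGFP-positive and 11.2 FPKM in ScxGFP-negative cells. *Ctsb* and *Ctsd*, the genes of cathepsins B and D, were at 8.71 and 18.3 FPKM in ScxGFP-positive cells, against 28.5 and 51.1 FPKM in ScxGFP-negative cells.

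The phagocyte NADPH oxidase, which makes superoxide, was lower in all 4 listed subunits, but unequally. *Cybb*, its catalytic chain gp91phox, stood at 0.0878 FPKM in ScxGFP-positive and 5.26 FPKM in ScxGFP-negative cells, 1.67%. *Ncf4*, encoding p40phox, was at 0.0613 FPKM in ScxGFP-positive and 4.06 FPKM in ScxGFP-negative cells, 1.51%, its positive value on about 204 aligned bases. *Ncf1*, encoding p47phox, was at 0.942 FPKM in ScxGFP-positive and 6.41 FPKM in ScxGFP-negative cells, 14.7%. *Cyba*, encoding p22phox, the partner chain of several oxidases outside blood as well, was at 3.27 FPKM in ScxGFP-positive and 10.3 FPKM in ScxGFP-negative cells, 31.7%, the highest share among the 36 measured genes. *Nox4*, an oxidase catalytic chain of non-blood tissues, was at 0.770 FPKM in ScxGFP-positive and 1.002 FPKM in ScxGFP-negative cells.

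Surface proteins of leukocytes in general had the lowest median share among these roles, with the ScxGFP-positive level at 1.61% of the ScxGFP-negative level. *Cd52*, a small glycoprotein of leukocytes (mm9 chromosome 4, 133649453 to 133650988), stood at 0.0927 FPKM in ScxGFP-positive and 23.5 FPKM in ScxGFP-negative cells. Its positive value rests on about 106 aligned bases and was 0.395% of the negative value, the lowest share above 0. *Cd53*, a tetraspanin, was at 0.161 FPKM in ScxGFP-positive and 10.03 FPKM in ScxGFP-negative cells. *Ptprc*, which encodes CD45, was at 0.125 FPKM in ScxGFP-positive and 4.40 FPKM in ScxGFP-negative cells, and its pair of listed transcripts were both lower, at 0.0750 and 0.0497 FPKM in ScxGFP-positive cells, against 2.50 and 1.90 FPKM in ScxGFP-negative cells.

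Cytoskeletal and signalling genes of leukocytes were all lower, 8 of 10 of them by at least 4-fold. *Arhgdib*, a GDP-dissociation inhibitor of small GTPases (NM_007486, mm9 chromosome 6, 136872230 to 136890238), was the most abundant of the 38 genes in both libraries, at 11.4 FPKM in ScxGFP-positive and 116 FPKM in ScxGFP-negative cells. It alone gave 29.1% of the summed FPKM of the group in the positive library, where it was the only gene above 10 FPKM, while 18 were above 10 FPKM in the negative library. *Coro1a*, the actin regulator coronin 1A, was at 0.969 FPKM in ScxGFP-positive and 50.8 FPKM in ScxGFP-negative cells. *Lcp1*, the actin bundler L-plastin, was at 0.969 FPKM in ScxGFP-positive and 48.2 FPKM in ScxGFP-negative cells. *Rac2*, the GTPase of blood cells, was at 1.06 FPKM in ScxGFP-positive and 19.7 FPKM in ScxGFP-negative cells.

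The less abundant genes of this group showed the same direction. The class I myosin genes *Myo1g* and *Myo1f* were at 0.0655 and 0.167 FPKM in ScxGFP-positive cells, against 7.38 and 6.67 FPKM in ScxGFP-negative cells. *Aif1*, which encodes the macrophage calcium-binding protein IBA1, was at 0.787 FPKM in ScxGFP-positive and 7.31 FPKM in ScxGFP-negative cells. *Plek*, encoding pleckstrin, was at 0.362 FPKM in ScxGFP-positive and 4.45 FPKM in ScxGFP-negative cells, and *Hcls1*, the cortactin-like HS1, at 0.0303 FPKM in ScxGFP-positive and 2.93 FPKM in ScxGFP-negative cells, with about 140 aligned bases behind the ScxGFP-positive value. *Vav1*, an exchange factor for small GTPases, was at 0.314 FPKM in ScxGFP-positive and 2.18 FPKM in ScxGFP-negative cells. Nearly all of its positive estimate fell on transcript NM_001163816 (0.310 FPKM) and most of its negative estimate on NM_011691 (1.95 FPKM), models that span the same locus, so the split between them is uncertain.

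*Pf4*, encoding a chemokine of platelets that some macrophages also express, stood at 1.33 FPKM in ScxGFP-positive and 21.6 FPKM in ScxGFP-negative cells, 6.18%. Other genes of megakaryocytes and platelets were low: of 12 listed genes 10 lay under 1 FPKM in ScxGFP-negative cells, and all 12 summed to 1.80 FPKM in ScxGFP-positive and 7.18 FPKM in ScxGFP-negative cells. *Ppbp*, the neighbouring platelet chemokine named here after its value was seen, was at 0.0430 FPKM in ScxGFP-positive and 0.668 FPKM in ScxGFP-negative cells.

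**Figure D2:**
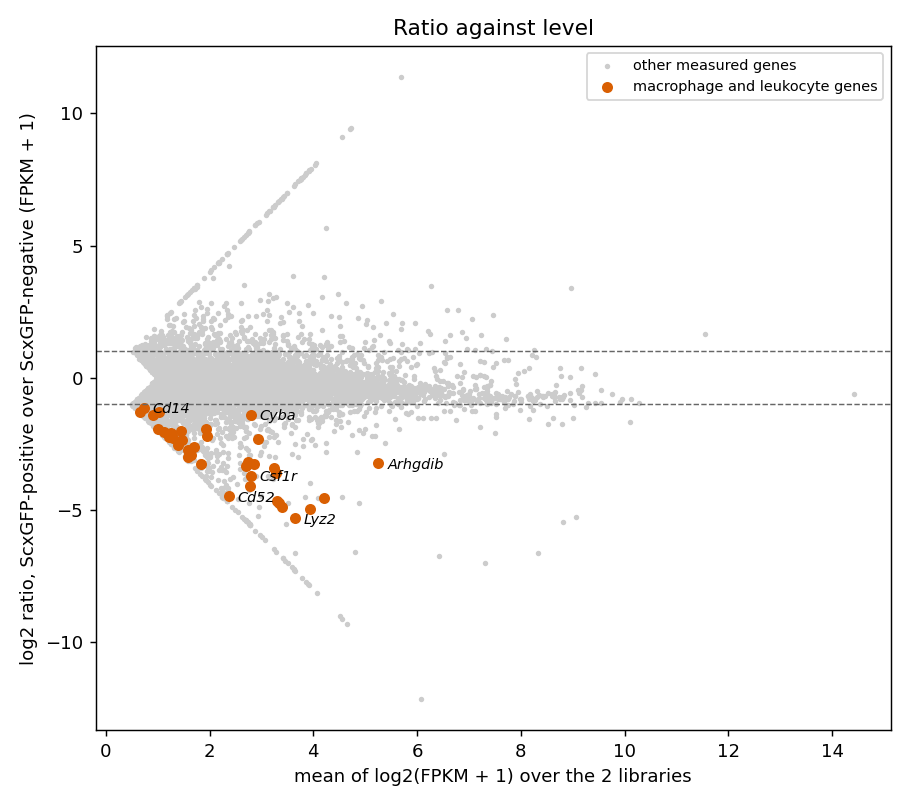
Log2 ratio of FPKM + 1, ScxGFP-positive over ScxGFP-negative (vertical), against the mean log2(FPKM + 1) of the 2 libraries (horizontal) for 12096 measured genes; the 36 measured macrophage and leukocyte genes are orange and dashed lines mark 2-fold. All 36 lie under the lower line, from *Cd14* at −1.13 to *Lyz2* at −5.31.

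For many leukocyte genes a relative of the same family is expressed more widely. Relatives, 29 in all, were set beside 17 of the genes, with *Sfpi1* for *Spi1*, and 16 of the 17 had a measured relative. Not every relative is a widely expressed gene, *Kit* being an exception. Of 24 measured relatives 3 were at least 2-fold lower in ScxGFP-positive cells, 2 were higher and 19 were neither, with a median log2 ratio of −0.42. Of all measured genes 9.98% were lower and 4.03% higher by as much. In each of the 24 pairs the leukocyte gene had the lower ratio, with log2 differences from −5.67 to −0.15. Of these leukocyte genes only *Rac2*, *Arhgdib* and *Mrc1* reached 1 FPKM in both libraries. The ratios of the others could only have been negative, so the direction in these pairs was in large part set by the filter. Of the 3 lower relatives *Vav3* was within 2-fold (−0.99) with the median ratio of all genes set to 1, and *Coro1b* under each other scaling. Under the 4 other scalings of the libraries the sign of 4 relatives changed (*Ets2*, *Laptm4b*, *Myo1d* and *Nox4*).

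*Rac1*, the widely used GTPase, stood at 69.3 FPKM in ScxGFP-positive and 109 FPKM in ScxGFP-negative cells, a ratio of −0.65 beside −3.33 for *Rac2*, and *Rac3* was at 2.87 FPKM in ScxGFP-positive and 2.17 FPKM in ScxGFP-negative cells. *Arhgdia* was at 35.1 FPKM in ScxGFP-positive and 65.8 FPKM in ScxGFP-negative cells, −0.89 beside −3.24 for *Arhgdib*. *Pls3*, the plastin of many tissues, was at 8.70 FPKM in ScxGFP-positive and 11.99 FPKM in ScxGFP-negative cells, −0.42 beside −4.64 for *Lcp1*. *Laptm4a* and *Laptm4b* were at 26.1 and 6.88 FPKM in ScxGFP-positive cells, against 23.6 and 7.62 FPKM in ScxGFP-negative cells, while *Laptm5* had a ratio of −4.88. *Coro1b* and *Coro1c* had ratios of −1.04 and −0.69 beside −4.72 for *Coro1a*.

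Some relatives were higher in ScxGFP-positive cells. *Ctsk*, the collagen-degrading cathepsin K, was at 4.52 FPKM in ScxGFP-positive and 1.60 FPKM in ScxGFP-negative cells, 1.08 beside −4.10 for *Ctss*, and *Ctsl* had −0.70. *Pdgfra* and *Pdgfrb*, receptor kinases of mesenchyme and of the same class as *Csf1r*, were at 44.5 and 11.4 FPKM in ScxGFP-positive cells, against 10.6 and 7.22 FPKM in ScxGFP-negative cells. *Kit*, the receptor of that class on mast cells and progenitors, was lower, at 2.38 FPKM in ScxGFP-positive and 19.1 FPKM in ScxGFP-negative cells. *Mrc2*, the collagen-binding relative of *Mrc1*, was at 11.3 FPKM in ScxGFP-positive and 5.54 FPKM in ScxGFP-negative cells, 0.91, and passed 2-fold under each other scaling.

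*Cttn*, cortactin, stood at 9.55 FPKM in ScxGFP-positive and 8.81 FPKM in ScxGFP-negative cells beside its blood relative *Hcls1*. The exchange factor genes *Vav2* and *Vav3* had ratios of −0.43 and −1.12, and *Vav3* with *Vav1* was the closest of all pairs. *Myo1e*, *Myo1d*, *Aif1l* and *Irf2* had −0.41, −0.08, −0.42 and −0.68, and *Ets1* and *Ets2* −0.75 and −0.36. *Irf1*, *Pls1*, *Plek2*, *Arhgdig* and *Nox1* lay under 1 FPKM in both libraries.

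**Figure D3:**
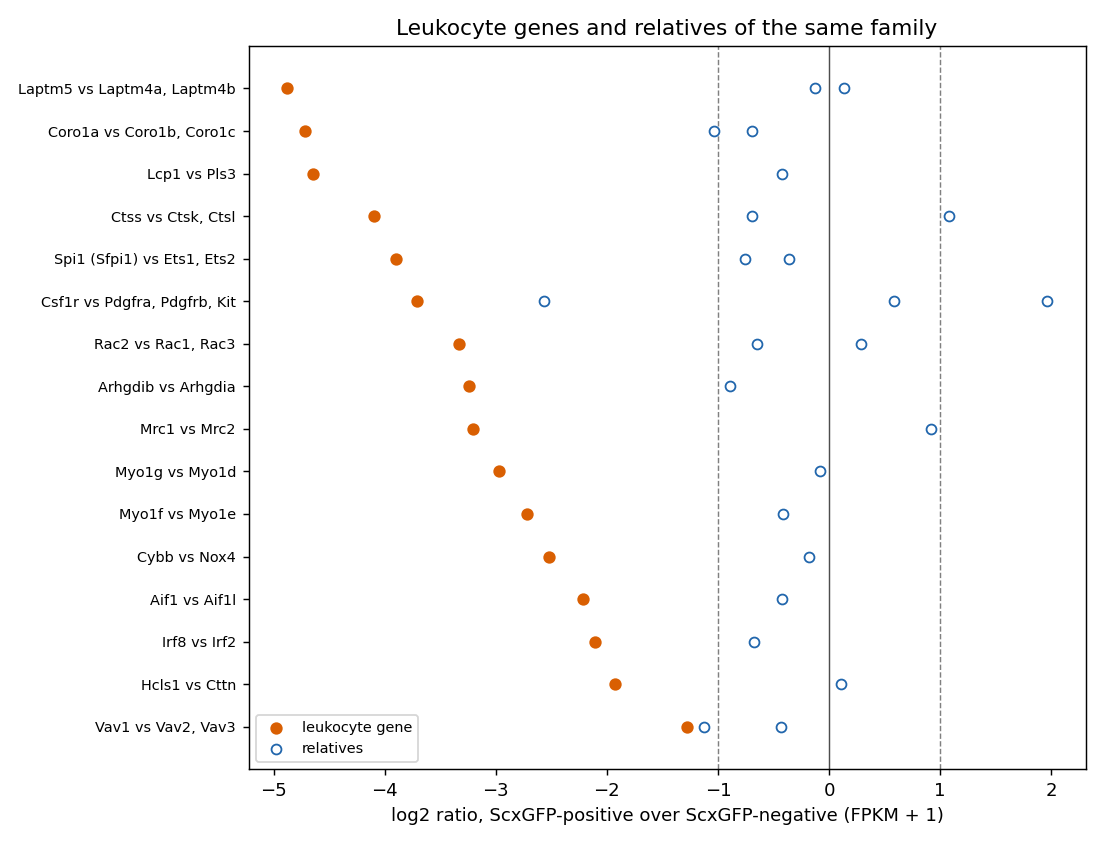
Log2 ratio of FPKM + 1, ScxGFP-positive over ScxGFP-negative, of 16 leukocyte genes (orange) and their 24 measured relatives (open blue circles), 1 row per leukocyte gene; dashed lines mark 2-fold. Every orange point lies left of the relatives in its row, closest for *Vav1* and *Vav3*.

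Further genes of the same cells, listed with earlier results of these data known, mostly lay on the same side. Of 28 further macrophage genes 18 were at least 2-fold lower, 0 higher and 10 neither, with a median log2 ratio of −1.27 over all 28. Of the 28, 7 lay under 1 FPKM in both libraries and could not have reached 2-fold on this scale. Among the 21 measured ones 18 were lower, beside 9.98% of all measured genes. In ScxGFP-positive cells 24 of the 28 lay under 1 FPKM, so those of them that were measured could only have been lower. Of the genes at 1 FPKM or more in both libraries, *Ms4a6c* was at least 2-fold lower, while *Csf2ra*, *Mertk* and *Axl* were not. *Csf2rb*, the shared receptor chain for GM-CSF, IL-3 and IL-5, stood at 0.348 FPKM in ScxGFP-positive and 14.1 FPKM in ScxGFP-negative cells, and *Msr1*, a scavenger receptor, at 0.101 FPKM in ScxGFP-positive and 10.7 FPKM in ScxGFP-negative cells. *Cx3cr1*, the fractalkine receptor, was at 0.490 FPKM in ScxGFP-positive and 12.2 FPKM in ScxGFP-negative cells, and *Stab1*, stabilin, at 0.614 FPKM in ScxGFP-positive and 10.7 FPKM in ScxGFP-negative cells. *Axl*, a TAM receptor kinase that mesenchyme also expresses, went the opposite way, at 12.2 FPKM in ScxGFP-positive and 6.17 FPKM in ScxGFP-negative cells, a ratio of 0.88 that passed 2-fold under each other scaling.

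Of 23 further pan-leukocyte genes in the files 21 were at least 2-fold lower and 2 within 2-fold, with a median of −2.29. Among the 22 measured ones 21 were lower, beside the same 9.98%. In ScxGFP-positive cells 21 of the 23 genes lay under 1 FPKM, so those of them that were measured could only have been lower. Of the genes at 1 FPKM or more in both libraries, *Itga4* was at least 2-fold lower and *Cd84* was within 2-fold. *Ikzf1*, the lymphoid and myeloid factor Ikaros, was at 0.184 FPKM in ScxGFP-positive and 16.1 FPKM in ScxGFP-negative cells. The adaptor genes *Fyb* and *Lcp2* were at 0.455 and 0.194 FPKM in ScxGFP-positive cells, against 15.9 and 9.51 FPKM in ScxGFP-negative cells. *Nckap1l*, encoding the actin regulator HEM1, was at 0.116 FPKM in ScxGFP-positive and 7.33 FPKM in ScxGFP-negative cells.

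The positions of the genes gave a few neighbours besides the C1q cluster. *Vav1* and *Emr1* lie 29.4 kb apart on mm9 chromosome 17 with 0 listed genes between them. *Ncf4* and *Rac2* lie 297 kb apart on chromosome 15 with 10 listed genes between, of which *Csf2rb* and its near-copy *Csf2rb2* (0.564 FPKM in ScxGFP-positive and 3.89 FPKM in ScxGFP-negative cells) were lower and the other 8 were not past 2-fold. *Fcgr3* and *Fcer1g* lie 170 kb apart on chromosome 1 with 7 genes between, all within 2-fold. Among the loci of the 38 genes, the only overlap with another listed gene was that of *Mir511* inside *Mrc1*, and *Mir511* was listed at 0 in both libraries.

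Several of these genes are also used by other blood cells, whose markers were lower in the same library. The 9 mast cell markers summed to 5.54 FPKM in ScxGFP-positive and 419 FPKM in ScxGFP-negative cells, and 7 of 9 were lower. *Cpa3*, the mast cell carboxypeptidase, alone was at 1.85 FPKM in ScxGFP-positive and 271 FPKM in ScxGFP-negative cells. The 11 neutrophil markers in the files summed to 1.88 FPKM in ScxGFP-positive and 70.9 FPKM in ScxGFP-negative cells, and 7 of 11 were lower, with *Ltf*, *Ngp* and *Ctsg* listed at 0 in the positive library. *Fcer1g*, *Ptprc*, *Laptm5* and *Coro1a* are expressed in mast cells, and *Lyz2*, *Cybb* and *Ncf1* in neutrophils. Their part in these values was not tested.

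Most lymphoid and dendritic markers were under 1 FPKM in both libraries. The 8 T cell markers summed to 2.08 FPKM in ScxGFP-positive and 6.28 FPKM in ScxGFP-negative cells, and 6 of the 8 were under 1 FPKM in both. *Cd3g*, a chain of the T cell receptor complex, was lower, at 0.0460 FPKM in ScxGFP-positive and 3.37 FPKM in ScxGFP-negative cells. *Cd3d*, another chain of it, was at 1.59 FPKM in ScxGFP-positive and 1.46 FPKM in ScxGFP-negative cells. The 6 B cell markers summed to 0.254 FPKM in ScxGFP-positive and 2.40 FPKM in ScxGFP-negative cells, and 5 of the 6 lay under 1 FPKM in the negative library. *Cd79b*, a chain of the B cell receptor complex, was lower, at 0.190 FPKM in ScxGFP-positive and 1.58 FPKM in ScxGFP-negative cells. All 7 dendritic cell markers lay under 1 FPKM in both libraries, with sums of 0.507 FPKM in ScxGFP-positive and 2.78 FPKM in ScxGFP-negative cells. The 5 NK cell markers summed to 0.148 FPKM in ScxGFP-positive and 6.498 FPKM in ScxGFP-negative cells, of which *Nkg7*, a granule protein gene of cytotoxic and some myeloid cells, gave 6.01 FPKM in the negative library and was listed at 0 in the positive one.

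The level of a gene in ScxGFP-positive cells was also taken as a share, in percent, of that in ScxGFP-negative cells. Over the 36 measured macrophage and leukocyte genes this share had a median of 3.49% and ranged from 0 for *Trem2* to 31.7% for *Cyba*. It was at most 10% in 31 of them, against 4.6% of all measured genes, and above 10% in 5: *Cyba*, *Cd68*, *Ncf1*, *Vav1* and *Aif1* (10.8%). The median share was 5.76% in 21 further macrophage genes, 2.23% in 22 further pan-leukocyte genes, 0.752% in 7 mast cell markers and 1.404% in 8 neutrophil markers. It was 2.85% in 8 erythroid, 4.41% in 10 endothelial and 3.56% in 6 epidermal markers. With 1 library per group, the differences between these medians were not tested. The ranges overlapped widely: 0 to 31.7% in the macrophage and leukocyte genes, 0 to 12.5% in mast cell and 0 to 48.4% in endothelial markers.

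**Figure D4:**
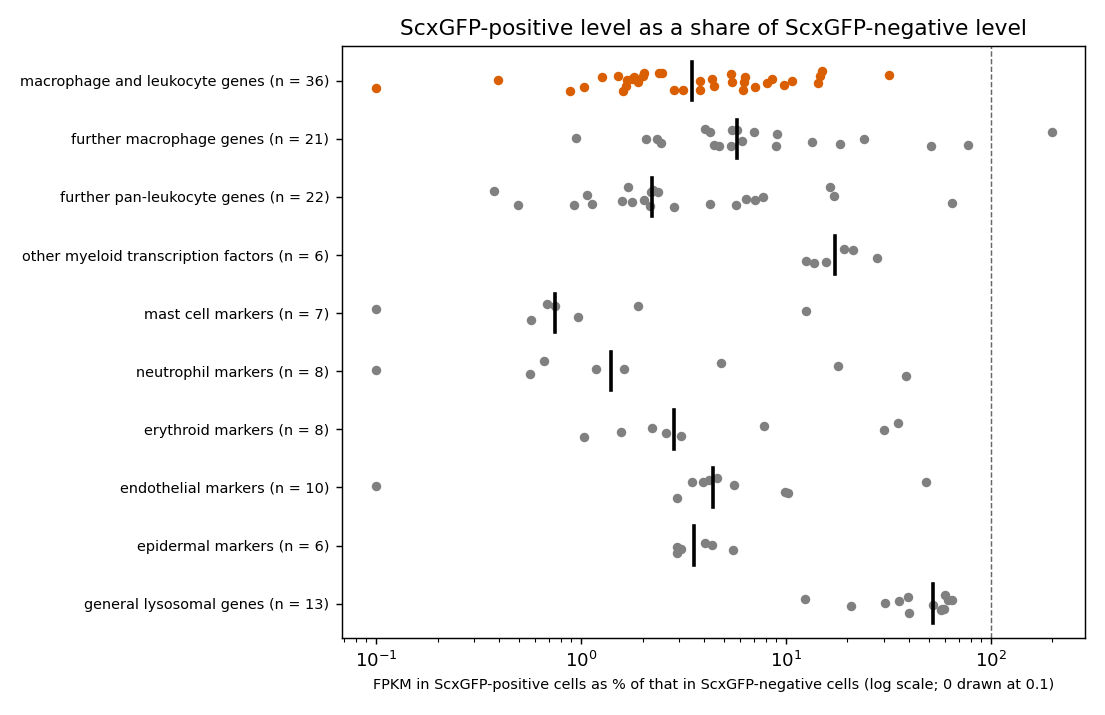
FPKM in ScxGFP-positive cells as a percentage of that in ScxGFP-negative cells (log axis, values of 0 drawn at 0.1), 1 point per measured gene, with the 36 macrophage and leukocyte genes in orange, other lists in grey and black bars at the medians. The orange points centre on 3.49%, within the range of other blood, endothelial and epidermal lists, while general lysosomal genes centre on 52.4%.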

How the data were processed

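Both libraries were made, per the labels' protocols, from total RNA extracted with a column kit and amplified with the NuGEN Ovation RNA-Seq v2 chemistry, which does not mark strand. Alignment tools named in the submitters' processing notes are TopHat 1.4.1 and Bowtie 0.12.7, and the build is mm9. Per the file headers the layout is that of Cufflinks, with its version not given in the sources used here. The authors' deposited FPKM is normalised to transcript length and mapped fragments. The deposited coverage, a signal of aligned depth per the file headers, was multiplied by the deposited transcript length (an other, unscaled value in bases) to give aligned bases; read counts were not used here and depth per gene is given only in these bases.

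Each file held 28107 transcript rows; 6 symbols were left out because a row had failed, and all 42 rows of the 38 genes had status OK. FPKM was summed per symbol with pandas 2.3.3 and numpy 2.4.6 (Python 3.11.15). Ratios used a pseudocount of 1, a minimum FPKM of 1 in either library and a 2-fold threshold. Positions count from 0 in the files, since length equalled end minus start in 3284 rows and end minus start plus 1 in 0, so 1 was added to each start. The calls were tested on simulated data with known folds. Those folds were put only into genes far above 1 FPKM in the ScxGFP-negative library. Recovery of folds at low values, which most of the 38 genes have in the ScxGFP-positive library, was thus not covered. Promoter windows read in the sense direction where checked. The genes and the 18 comparison lists were chosen with earlier results of these data known. Named were all of the genes, all 29 relatives, *Scx*, and of each list the 4 measured genes with the largest absolute ratio plus the largest of opposite sign, of which the text gives most (a few are not reported here); any other gene named was chosen after its value was seen.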

Additional observations from a re-analysis of the deposited data

How the results depend on the processing

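The count of genes at least 2-fold lower in ScxGFP-positive cells was 36 under every setting run except a pseudocount of 5, where it was 23, a minimum FPKM of 5, which left 26 genes, all lower, and the addition of *Sfpi1* (chosen after seeing the data), where it was 37. Among all measured genes 3.26% were lower with the pseudocount of 5, and 10.6% of those left by the minimum FPKM of 5. With the pseudocount of 5, 13 genes came within 2-fold without a change of direction. So did 14 of the 84 other named genes, *Vav3*, *Coro1b*, *Ctsk*, *Cebpa*, *Myb*, *Runx1*, *Cd200*, *Cd3g* and *Cd79b* among them. The median log2 ratio of the measured genes ran from −4.23 with a pseudocount of 0.1 to −1.29 with 5. It was −2.77 with the median ratio of all genes set to 1 and with equal upper quartiles, −3.58 with TPM and −3.66 with TPM without haemoglobin genes, where the median of all genes was 0.01, −0.03, 0.12 and 0.04. The summed level in ScxGFP-positive cells was 4.60% to 6.35% of that in ScxGFP-negative cells over the settings run. With the highest transcript only, or with low-data rows missing, the count and the median did not change. No paired analysis was possible because each group has 1 library. Leaving out a library was likewise not possible. Depth limits the lowest values: 12 of the 38 positive values and 1 negative value rest on under 1000 aligned bases.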
